A study of Arabidopsis thaliana with 18 samples.

Results

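The 10 genes followed here belong to the general phenylpropanoid pathway and the first steps towards lignin, and were measured in Arabidopsis thaliana hypocotyls, the seedling stem below the cotyledons. They were chosen by locus: PAL1, PAL2, PAL3, PAL4, C4H, 4CL1, 4CL2, HCT, C3H1 and CCoAOMT1, which are 10 of the 32833 genes in the count table. Poly-A RNA was sequenced in 18 libraries, 3 in each of 6 groups. Wild type (WT) and hy1 seedlings were sampled before a move from darkness to light (0 h) and 12 h and 24 h after it. HY1 encodes a haem oxygenase needed for the chromophore of phytochromes, the red light photoreceptors, and hy1 mutants are short of active phytochrome. The labels name no allele. Sample titles call the WT libraries mock, and genotype was read from the sample descriptions. No 12 h or 24 h library kept in darkness was analysed here, so light and elapsed time or time of day cannot be told apart.

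Phenylalanine ammonia-lyase (PAL) removes ammonia from phenylalanine to give cinnamate, cinnamate 4-hydroxylase (C4H) makes p-coumarate from it, and 4-coumarate:CoA ligase (4CL) makes p-coumaroyl-CoA. That product feeds flavonoids through chalcone synthase, or lignin and related compounds through HCT, which couples it to shikimate, C3H1, which hydroxylates the ester, and CCoAOMT1, which methylates caffeoyl-CoA to feruloyl-CoA. In hypocotyls lignin lies mainly in xylem, while light-induced flavonols and sinapate esters act as sunscreens.

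Each of the 10 genes had the same start and end in the deposited table and in the RefSeq annotation of TAIR10.1. PAL1 (AT2G37040) lies at chr2:15557367-15560755 and C4H (AT2G30490) at chr2:12993625-12996012, both on the minus strand. PAL2 (AT3G53260) lies at chr3:19744018-19747114 on the minus strand, PAL3 (AT5G04230) at chr5:1160569-1163957 and PAL4 (AT3G10340) at chr3:3203988-3208135, both on the plus strand. 4CL1 (AT1G51680) lies at chr1:19158746-19161737, 4CL2 (AT3G21240) at chr3:7454269-7457404, HCT (AT5G48930) at chr5:19836299-19838235 and C3H1 (AT2G40890) at chr2:17058053-17060652, all on the minus strand. CCoAOMT1 (AT4G34050) lies at chr4:16310409-16312308 on the plus strand. Exon bases were shared with an opposite-strand gene in C3H1 (94 of 1885 bases) and 4CL1 (24 of 2558 bases), and reads there cannot be assigned with certainty. Windows of 50 bases found elsewhere in the genome made up 1.09% of those in PAL1 and 1.11% in PAL2, and 0% in the other members.

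The 250 bases before the annotated start are shown for 6 genes, in pairs that moved together in the values that follow: PAL1 with PAL2, PAL4 with HCT, and 4CL1 with 4CL2. They are from the RefSeq genome TAIR10.1, written 5′ to 3′ on the gene's strand, with matches to a searched motif in capitals. They span chr2:15560756-15561005 (minus strand) for PAL1, chr3:19747115-19747364 (minus) for PAL2, chr3:3203738-3203987 (plus) for PAL4, chr5:19838236-19838485 (minus) for HCT, chr1:19161738-19161987 (minus) for 4CL1 and chr3:7457405-7457654 (minus) for 4CL2.
PAL1: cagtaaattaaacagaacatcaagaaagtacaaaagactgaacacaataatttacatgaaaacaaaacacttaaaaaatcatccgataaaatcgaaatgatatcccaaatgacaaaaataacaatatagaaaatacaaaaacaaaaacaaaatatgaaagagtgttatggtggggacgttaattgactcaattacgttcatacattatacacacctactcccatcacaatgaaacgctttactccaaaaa
PAL2: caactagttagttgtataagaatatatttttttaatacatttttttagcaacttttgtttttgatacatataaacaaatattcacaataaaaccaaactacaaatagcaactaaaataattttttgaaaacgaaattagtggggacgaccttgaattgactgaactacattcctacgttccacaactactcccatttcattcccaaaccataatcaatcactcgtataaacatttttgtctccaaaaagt
PAL4: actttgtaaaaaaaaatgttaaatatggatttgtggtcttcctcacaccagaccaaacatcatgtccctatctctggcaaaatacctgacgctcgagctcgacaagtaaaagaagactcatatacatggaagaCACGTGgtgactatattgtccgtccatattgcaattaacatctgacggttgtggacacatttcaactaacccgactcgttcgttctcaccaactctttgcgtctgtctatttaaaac
HCT: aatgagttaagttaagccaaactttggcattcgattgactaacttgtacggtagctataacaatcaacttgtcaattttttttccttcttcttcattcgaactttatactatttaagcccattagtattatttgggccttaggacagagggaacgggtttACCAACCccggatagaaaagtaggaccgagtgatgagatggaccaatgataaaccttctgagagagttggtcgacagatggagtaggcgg
4CL1: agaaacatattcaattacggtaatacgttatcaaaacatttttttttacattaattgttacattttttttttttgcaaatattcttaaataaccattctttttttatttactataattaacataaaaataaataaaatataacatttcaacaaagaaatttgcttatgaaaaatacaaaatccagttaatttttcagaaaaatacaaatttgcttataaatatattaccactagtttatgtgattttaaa
4CL2: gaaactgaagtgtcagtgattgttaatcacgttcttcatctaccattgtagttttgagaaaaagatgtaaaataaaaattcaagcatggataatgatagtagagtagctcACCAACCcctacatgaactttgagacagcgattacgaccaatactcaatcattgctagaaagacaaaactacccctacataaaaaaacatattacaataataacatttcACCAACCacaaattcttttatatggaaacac
The motifs searched on both strands, from 250 bases before to 50 after the start, were the AC elements, ACCTACC in one form, ACCAACC in another and ACCTAAC in the last, short sites known from promoters of lignin genes, and the G-box CACGTG, a site bound by light-signalling factors. An AC element was found in 6 of the 10 members (PAL1, PAL2, 4CL2, HCT, C3H1 and CCoAOMT1) and in 7.29% of all 27443 promoters searched. In PAL1 and PAL2 the match (ACCAACC) lay after the start, at bases 39 and 4. In 4CL2 it occurred at -140 and -31, in HCT at -90 and in C3H1 at -22, while CCoAOMT1 held ACCTACC at -213. HCT also held ACCTACC on the opposite strand at base 12. The G-box was found in PAL4, at -117, and in 7.68% of all promoters. No letters of these motifs were found in the windows of PAL3, C4H and 4CL1, which says nothing about the factors that act there.

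Library totals ran from 38469946 to 59905064 counts, and all 10 members were among the 20955 genes that passed the filter on low counts. Expression is in CPM, counts scaled to the normalized library size, or, between genes, as FPKM, which also divides by exon length. A gene is said to have risen or fallen where edgeR's quasi-likelihood test gave an adjusted p under 0.05 over all genes tested. The labels do not say that the replicates are separate cultures, so the p-values speak only to variation among these libraries, which may be technical. HY1 transcripts were at 23.4 to 47.9 CPM in the WT libraries and at 18.4 to 36.3 CPM in hy1, where they lay below all WT libraries of the same time at 0 h and 24 h but overlapped them at 12 h. Libraries differed most within 2 WT groups. Across genes, WT 24 h replicate 3 correlated at r of 0.9675 and 0.9713 with the others of its group, which correlated at 0.9900 with each other. In WT 12 h replicate 1 correlated at 0.9475 and 0.9681 with replicates 2 and 3, which correlated at 0.9781, so that r alone does not say which of them is unlike the group. The log2 differences of WT 12 h replicates 2 and 3 from replicate 1 correlated across genes at 0.64 and 0.75 with those of WT 24 h replicate 3 from its group, and these 3 libraries were therefore set apart. Within the other 4 groups r was 0.9874 to 0.9913. Results that rest on them are followed by the value without them, a fit that has 1 library at WT 12 h, assumed to vary like the other groups. Summed root hair markers reached at most 1.38 CPM in a library, with 1 to 3 of the 5 at 0 in each group, and the 3 seed reserve markers 0.568 CPM. Summed levels of 6 xylem markers ran from 437 to 620 CPM at WT 0 h, 471 to 643 at 12 h and 346 to 412 at 24 h, and in hy1 from 577 to 655, 423 to 605 and 328 to 441. In bulk RNA, fewer cells of a type and less RNA per cell cannot be told apart.

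In darkness the genes spanned a wide range of levels per length. CCoAOMT1 was highest in WT at 384 ± 31.3 FPKM (SD, n = 3), followed by HCT at 245 ± 7.97, C4H at 221 ± 8.49 and PAL1 at 205 ± 18.4 FPKM. 4CL1 followed at 155 ± 9.38 FPKM, C3H1 at 113 ± 3.41, PAL4 at 104 ± 3.22 and PAL2 at 90.6 FPKM (79.2 to 98.3). 4CL2 was at 49.1 ± 4.34 FPKM and PAL3 at 10.3 ± 2.82 FPKM. The 10 genes together took 0.338 ± 0.0207% of the normalized counts in WT in darkness, 0.464 ± 0.0138% at 12 h and 0.318 ± 0.00670% at 24 h. In hy1 they took 0.353 ± 0.0194%, 0.319 ± 0.0467% and 0.248 ± 0.00996%. The share was thus highest at WT 12 h, where its lowest library (0.448%) lay above the highest of any other group (0.374%, hy1 0 h).

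**Figure D1:**
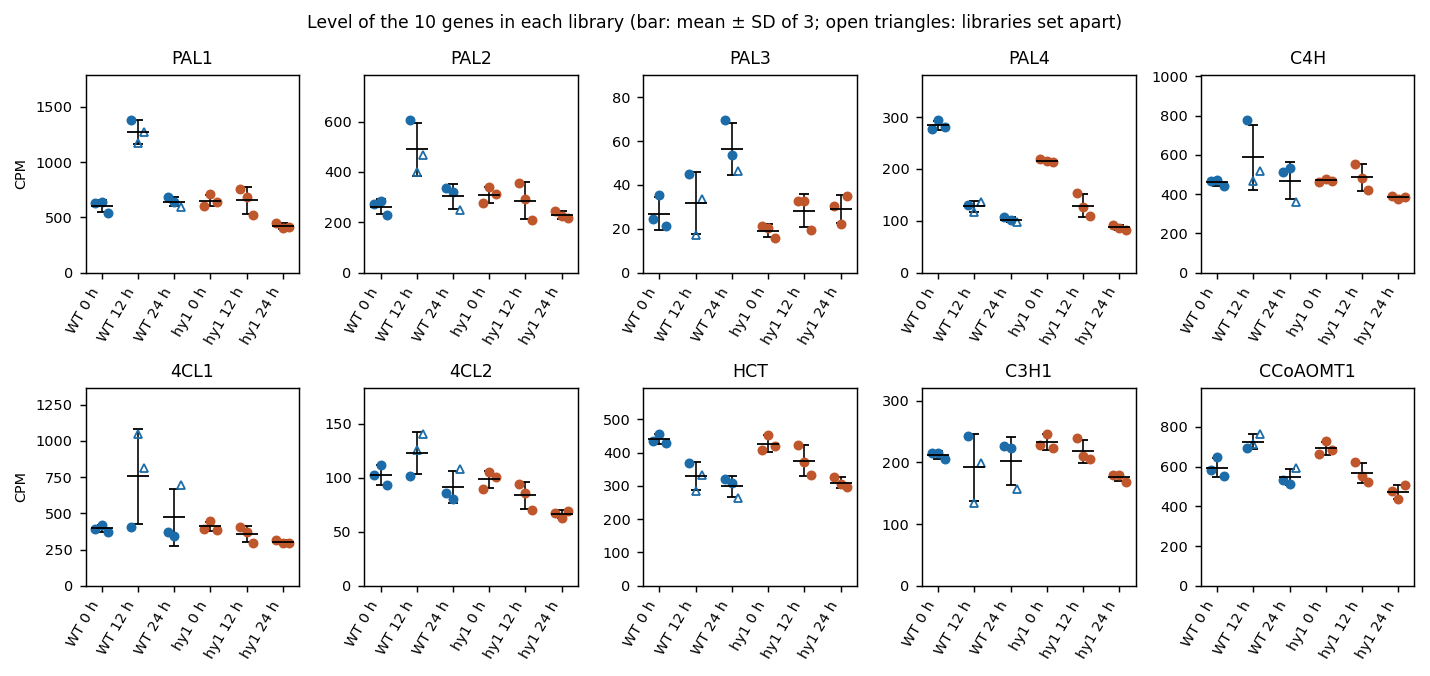
Level of each gene (CPM) in the 18 libraries by group; points are libraries, bars the mean ± SD of 3, and open triangles the 3 libraries set apart. PAL1 lies at 1170 to 1380 CPM at WT 12 h and at most at 761 CPM elsewhere, while PAL4 is highest in darkness in both genotypes.

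PAL1, the most abundant PAL gene here, was at 626, 635 and 537 CPM in the WT libraries in darkness, at 1380, 1170 and 1270 CPM after 12 h and at 682, 643 and 598 CPM after 24 h. In hy1 it was at 606, 707 and 643 CPM at 0 h, 761, 681 and 519 CPM at 12 h and 452, 401 and 412 CPM at 24 h. The WT 12 h libraries stood above all others, with no overlap, and the hy1 24 h libraries below all others. PAL1 rose 2.12-fold in WT at 12 h (log2 change 1.09 ± 0.13 SE, adjusted p = 6.7e-06) and fell again between 12 h and 24 h (-0.99 ± 0.13, adjusted p = 0.00027). In hy1 the change at 12 h was 0.00 ± 0.13 (95% interval -0.28 to 0.29, adjusted p = 0.99). The light responses of the genotypes differed by -1.08 ± 0.19 at 12 h (interaction, adjusted p = 0.002). By 24 h PAL1 in hy1 had fallen below its dark level (-0.63 ± 0.13, adjusted p = 0.0014), while WT was at 0.10 ± 0.13 (adjusted p = 0.58). At 24 h the light responses differed by -0.73 ± 0.19 (adjusted p = 0.025), which no longer passed when any 1 of WT 0 h replicate 3, WT 24 h replicate 1, hy1 0 h replicates 2 or 3 or hy1 24 h replicates 2 or 3 was left out (adjusted p = 0.051 to 0.081).

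PAL2, with PAL1 one of the main PAL genes of the species, was lower and also peaked at WT 12 h. It was at 272, 284 and 229 CPM at WT 0 h, 606, 398 and 467 CPM at 12 h and 338, 322 and 248 CPM at 24 h. The hy1 libraries were at 276, 339 and 313 CPM at 0 h, 355, 293 and 210 CPM at 12 h and 245, 223 and 216 CPM at 24 h. WT 12 h was again above every other group, while hy1 12 h overlapped hy1 0 h. PAL2 rose in WT at 12 h by 0.91 ± 0.19 (adjusted p = 0.00085), against -0.11 ± 0.19 in hy1 (95% interval -0.51 to 0.29, adjusted p = 0.67). At 24 h in hy1 PAL2 was at -0.44 ± 0.19 against darkness (adjusted p = 0.075) and at -0.33 ± 0.19 against 12 h (adjusted p = 0.42), with libraries that overlapped those of WT 0 h. The interaction at 12 h was -1.02 ± 0.27 (adjusted p = 0.021), and its adjusted p was 0.053 or 0.054 when replicate 3 of WT 0 h or replicate 2 of hy1 0 h was left out. The rises in WT at 12 h were 1.20 for PAL1 and 1.21 for PAL2 without the 3 libraries set apart, and the interactions -1.19 and -1.32 (adjusted p = 0.0015 and 0.0031).

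PAL4 moved the other way. It was at 278, 294 and 280 CPM at WT 0 h, 131, 116 and 136 CPM at 12 h and 108, 101 and 98.0 CPM at 24 h. In hy1 it was at 220, 215 and 213 CPM at 0 h, 153, 126 and 109 CPM at 12 h and 92.6, 86.5 and 82.1 CPM at 24 h. Dark and light libraries did not overlap in either genotype, and in darkness all hy1 libraries lay below all WT ones. PAL4 fell by 1.15 ± 0.11 at 12 h and by 1.47 ± 0.11 at 24 h in WT (adjusted p = 4.3e-07 and 3.1e-08), and by 0.74 ± 0.11 and 1.31 ± 0.11 in hy1 (adjusted p = 4.8e-05 and 1.7e-07). The dark difference of hy1 from WT was -0.40 ± 0.11 (adjusted p = 0.015, and 0.054 without WT 0 h replicate 2). For the interaction 12 h after the move to light the value was 0.41 ± 0.15 (adjusted p = 0.087).

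PAL3, a PAL gene with a much weaker enzyme, was low throughout, at 15.6 to 69.6 CPM. Its WT libraries were at 24.4, 35.3 and 21.2 CPM at 0 h, 45.2, 17.1 and 33.4 CPM at 12 h and 69.6, 53.7 and 46.4 CPM at 24 h. The 24 h libraries lay above the others, while 12 h spread around 0 h. PAL3 rose in WT at 24 h (1.07 ± 0.31, adjusted p = 0.0097; 0.05 without WT 0 h replicate 3). In hy1, at 21.1, 20.4 and 15.6 CPM in darkness and 30.4, 22.1 and 34.8 CPM at 24 h, the change was 0.61 ± 0.31 (adjusted p = 0.13). The interaction at 24 h was -0.46 ± 0.44 (adjusted p = 0.61). PAL3 was lower in hy1 than in WT at 24 h (-0.96 ± 0.31, adjusted p = 0.038), a call that ended when any 1 of the 5 libraries of these groups other than WT 24 h replicate 3 was left out (adjusted p = 0.058 to 0.15), or replicate 1 of WT 0 h or replicate 2 of hy1 0 h (both 0.051).

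The make-up of PAL transcripts thus differed between the libraries taken before and after the move to light. PAL4 gave 25.5 ± 1.73% of summed PAL FPKM in WT in darkness, 7.11 ± 0.595% at 12 h and 9.86 ± 0.530% at 24 h, and in hy1 19.1 ± 1.46%, 12.5 ± 0.846% and 12.0 ± 0.424%. PAL1 gave 49.9 ± 0.947%, 65.7 ± 2.54% and 57.2 ± 1.84% in WT and 53.4 ± 0.647%, 58.8 ± 1.10% and 54.1 ± 0.216% in hy1. The PAL4 share at WT 12 h (6.45 to 7.61%) lay below that of every other group. Summed PAL FPKM was 410 ± 32.5 in WT in darkness, 663 ± 79.0 at 12 h and 383 ± 36.5 at 24 h, and 416 ± 27.3, 380 ± 77.7 and 266 ± 16.5 in hy1. These sums and shares are descriptions without a test.

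**Figure D2:**
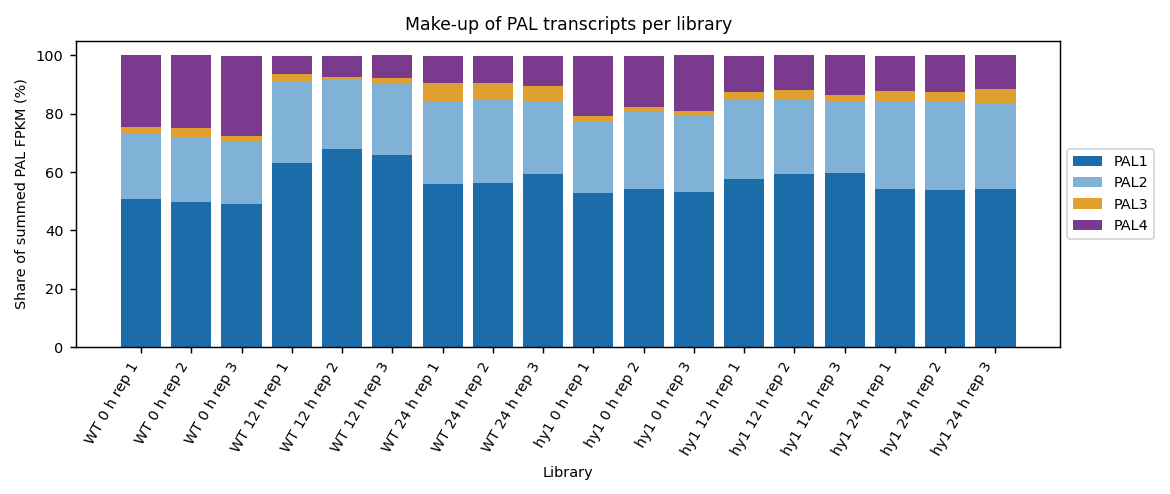
Share of each PAL gene in the summed PAL FPKM (%, vertical axis) of each library (horizontal axis). PAL4 makes up 24.4 to 27.5% in the WT dark libraries and 6.45 to 7.61% in those of WT 12 h, and PAL1 is the largest part in each library.

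C4H, the only cinnamate hydroxylase gene of the species, was even in darkness and diverged among the light-treated WT libraries. Its levels were 468, 472 and 439 CPM at WT 0 h, 776, 466 and 518 CPM at 12 h and 513, 530 and 359 CPM at 24 h. In hy1 it was at 463, 479 and 465 CPM at 0 h, 551, 484 and 418 CPM at 12 h and 391, 375 and 383 CPM at 24 h. Within WT 12 h and WT 24 h the libraries set apart were the low ones. Over all libraries C4H passed no test, with 0.35 ± 0.17 in WT at 12 h (95% interval -0.02 to 0.72, adjusted p = 0.1) and an interaction of -0.30 ± 0.25 (adjusted p = 0.4). It rose in WT at 12 h by 0.75 (adjusted p = 7.5e-05) without the 3 libraries, and its interaction was then -0.70 (adjusted p = 0.0058), with 1 library at WT 12 h. Leaving out WT 12 h replicate 2 alone gave 0.49 (adjusted p = 0.028), the only call among 18 fits with 1 library left out. These fits ran from 0.1 to 0.49, and those of the interaction from -0.44 to -0.05 with 0 called. In hy1 the 24 h libraries lay below the dark ones without overlap (-0.29 ± 0.17, adjusted p = 0.2). With these groups compared alone the change was -0.28 (adjusted p = 0.0061). Over the 18 libraries log2 CPM of C4H and PAL1 correlated at r = 0.77, and over the other 15 at r = 0.98. PAL1 and PAL2 correlated at 0.94 and 0.95. The libraries share groups, and these values are descriptions.

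4CL1 and 4CL2 are the ligases of lignin-forming tissue. 4CL1 was at 391, 421 and 374 CPM at WT 0 h, 403, 1050 and 813 CPM at 12 h and 374, 345 and 697 CPM at 24 h. The 3 high values are those of the libraries set apart, and the remaining WT libraries lay between 345 and 421 CPM. The log2 differences of these 3 from the other libraries of their groups were 1.38, 1.01 and 0.95, in the 93.8th to 93.9th percentile of all genes tested. For C4H they were -0.74, -0.58 and -0.54. In hy1 4CL1 was at 387 to 448 CPM at 0 h, 296 to 403 CPM at 12 h and 292 to 318 CPM at 24 h. Its 24 h libraries there lay below the dark ones without overlap (-0.44 ± 0.28, adjusted p = 0.24). With these groups compared alone the change was -0.43 (adjusted p = 0.002). 4CL1 passed the test at WT 12 h over all libraries (0.93 ± 0.29, adjusted p = 0.012), but not without WT 12 h replicate 2 (0.62, adjusted p = 0.089) nor without the 3 libraries (0.03, adjusted p = 0.89). It was also lower in hy1 than in WT at 12 h (-1.08 ± 0.29, adjusted p = 0.011), with -0.17 and no call without the 3. Its interaction at 12 h was -1.13 ± 0.4 (adjusted p = 0.072), and -0.22 without the 3 libraries. Leaving out WT 12 h replicate 1 instead gave an interaction of -1.44 (adjusted p = 0.0033) and a fall from 12 h to 24 h in WT of -0.99 (adjusted p = 0.0051), against -0.68 ± 0.28 (adjusted p = 0.15) over all libraries. The difference between genotypes at 12 h also lost its call without replicate 2 of WT 12 h (adjusted p = 0.067) or replicate 3 of hy1 12 h (0.052).

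4CL2 followed 4CL1 at a lower level. It was at 103, 112 and 93.6 CPM at WT 0 h, 102, 126 and 141 CPM at 12 h and 85.5, 80.3 and 108 CPM at 24 h, the same 3 libraries again being highest in their groups. In hy1 it fell from 90.0, 105 and 101 CPM at 0 h to 67.7, 62.7 and 69.5 CPM at 24 h (-0.57 ± 0.14, adjusted p = 0.0046), with no overlap. Against WT, hy1 had less 4CL2 at both light times, with differences of -0.56 ± 0.14 at 12 h and -0.45 ± 0.14 at 24 h (adjusted p = 0.0085 and 0.034). These became -0.29 with no call and -0.32 (adjusted p = 0.04) without the 3 libraries. The call at 12 h was also lost without replicate 3 of WT 12 h (adjusted p = 0.056) or of hy1 12 h (0.051). The call at 24 h was lost without any 1 of 11 libraries, WT 24 h replicate 3 among them (-0.29, adjusted p = 0.2). The ratio of 4CL1 to 4CL2 FPKM was 3.09 to 3.27 in WT in darkness and 4.72 to 6.80 in the 3 libraries set apart.

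**Figure D3:**
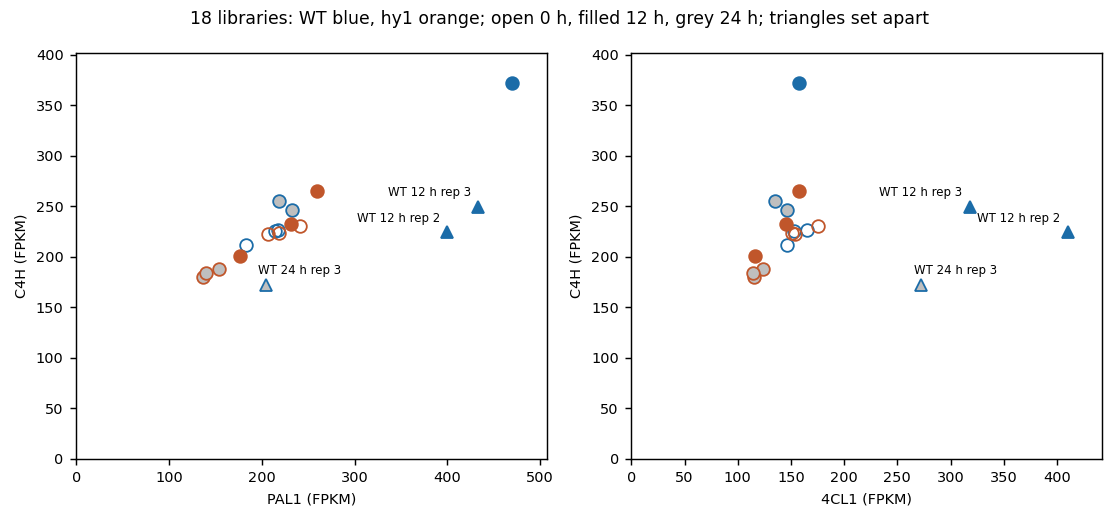
C4H level against PAL1 level (left) and against 4CL1 level (right), both axes in FPKM, 1 point per library; WT is blue and hy1 orange, and triangles are the 3 libraries set apart. In the left plot the other 15 libraries lie along a line (r = 0.98 for log2 CPM), and the triangles lie to the right of it. For C4H and 4CL1 r was 0.61 over these 15, and the triangles have the highest 4CL1 levels in the right plot.

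HCT, which channels p-coumaroyl-CoA towards lignin, fell after the move to light. It was at 435, 457 and 430 CPM at WT 0 h, 369, 286 and 332 CPM at 12 h and 322, 310 and 263 CPM at 24 h. In hy1 it was at 407, 454 and 420 CPM at 0 h, 423, 372 and 333 CPM at 12 h and 327, 306 and 297 CPM at 24 h. Dark and light libraries were separate in WT, and in hy1 at 24 h but not at 12 h. In WT HCT fell by 0.42 ± 0.12 at 12 h and 0.56 ± 0.12 at 24 h (adjusted p = 0.0067 and 0.00091), and by 0.46 ± 0.12 at 24 h in hy1 (adjusted p = 0.0048). The 12 h value in WT was -0.26 (adjusted p = 0.093) without the 3 libraries. HCT in hy1 and WT differed by 0.19 ± 0.12 at 12 h (95% interval -0.05 to 0.44, adjusted p = 0.21). Over the 18 libraries HCT correlated with PAL4 at r = 0.89.

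C3H1, the hydroxylase that acts on the HCT product, passed no test over all libraries. It was at 205 to 216 CPM at WT 0 h, at 243, 135 and 199 CPM at 12 h and at 226, 223 and 157 CPM at 24 h, and the libraries set apart were low in their groups, as for C4H. In hy1 it was at 223 to 247 CPM in darkness and at 169 to 180 CPM at 24 h, without overlap (-0.40 ± 0.17, adjusted p = 0.074). Without the 3 libraries that value was -0.40 with adjusted p = 0.00018, and without WT 12 h replicate 1, WT 12 h replicate 2 or WT 24 h replicate 3 alone the adjusted p was 0.018 to 0.048.

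CCoAOMT1, the most abundant member per length in each group mean of WT and hy1, was at 584, 647 and 552 CPM at WT 0 h, 695, 714 and 767 CPM at 12 h and 535, 514 and 592 CPM at 24 h. The hy1 libraries were at 663, 728 and 685 CPM at 0 h, 626, 554 and 525 CPM at 12 h and 478, 435 and 507 CPM at 24 h. At 12 h the genotypes had moved in opposite directions without overlap with their dark libraries. The change was 0.29 ± 0.11 in WT (adjusted p = 0.031) and -0.28 ± 0.11 in hy1 (adjusted p = 0.038), with an interaction of -0.57 ± 0.15 (adjusted p = 0.021). All of these were small and close to the threshold. The WT rise was lost without WT 0 h replicates 1 or 3 or WT 12 h replicates 2 or 3 (adjusted p = 0.054 to 0.14). The hy1 fall was lost without any 1 of 7 libraries, the interaction without any 1 of 6, and none of the 3 passed with limma on log2(FPKM + 1) (adjusted p = 0.12, 0.2 and 0.093). The interaction was -0.51 (adjusted p = 0.039) without the 3 libraries set apart, while the WT rise (0.22, adjusted p = 0.15) and the WT fall from 12 h to 24 h (-0.40, adjusted p = 0.1) did not pass. By 24 h CCoAOMT1 had fallen in hy1 by 0.55 ± 0.11 (adjusted p = 0.00061), against -0.12 ± 0.11 in WT (adjusted p = 0.37).

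Counted over the members, 4 rose (PAL1, PAL2, 4CL1, CCoAOMT1) and 2 fell (PAL4, HCT) in WT at 12 h, where 53.6% of all genes tested were called, 28.3% higher and 25.3% lower. The 6 of 10 are thus near the background. At WT 24 h PAL3 rose and PAL4 and HCT fell, against 47.7% of all genes called, 24.6% higher and 23.1% lower. Between 12 h and 24 h in WT 3 members fell (PAL1, PAL2, CCoAOMT1) and 0 rose, against 9.08% of all genes called, 3.67% higher and 5.41% lower. The fall of PAL2 (-0.70 ± 0.19, adjusted p = 0.031) was lost without WT 12 h replicate 3 or either of WT 24 h replicates 1 and 2 (adjusted p = 0.05 to 0.076), and that of CCoAOMT1 without replicate 2 or 3 of WT 12 h or replicate 1 or 2 of WT 24 h (0.055 to 0.12). In hy1 0 members rose at any time. PAL4 and CCoAOMT1 fell at 12 h (44.2% of all genes called, 22.9% higher and 21.3% lower), and PAL1, PAL4, 4CL2, HCT and CCoAOMT1 at 24 h (40.5% called, 20.4% higher and 20.1% lower). PAL1 and PAL4 fell between 12 h and 24 h in hy1 (4.89% of all genes called, 2.35% higher and 2.54% lower), PAL1 not without hy1 12 h replicate 1 or hy1 24 h replicates 2 or 3 (adjusted p = 0.06 to 0.07) and PAL4 not without hy1 24 h replicate 3 (0.05). The median log2 change of the members was 0.27 in WT and -0.15 in hy1 at 12 h, and -0.02 and -0.45 at 24 h, while that of all genes was -0.00 to 0.02 in these comparisons. Without the 3 libraries all 10 members passed in hy1 at 24 h, 9 lower and PAL3 higher, when 57% of all genes did.

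Over all libraries each member called between the genotypes was lower in hy1. In darkness only PAL4 passed, lower in hy1, against 24.6% of all genes called, 12.2% higher and 12.4% lower. At 12 h PAL1, PAL2, 4CL1, 4CL2 and CCoAOMT1 were lower in hy1 and 0 members higher, against 32.7% of all genes called, 14.9% higher and 17.8% lower. At 24 h PAL1, PAL3 and 4CL2 were lower (20.6% called, 10.5% higher and 10.2% lower). The interaction passed for PAL1, PAL2 and CCoAOMT1 at 12 h (13.5% of all genes called, 6.73% higher and 6.80% lower) and for PAL1 at 24 h (8.67% called, 5.18% higher and 3.49% lower). Without the 3 libraries the lower members at 12 h were PAL1, PAL2 and C4H (18.9% of all genes called), and at 24 h PAL1, PAL2, PAL3, C4H, 4CL2 and C3H1 (33.6%). The interactions called were then those of PAL1, PAL2, C4H and CCoAOMT1 at 12 h (12.4%), and at 24 h those of PAL1, PAL2, C4H and C3H1 (16.5%). PAL1 and PAL2 passed in the interaction at 12 h with and without these libraries. Without WT 12 h replicate 1 the interaction at 12 h passed for 5 members, 4CL1 and 4CL2 being added, and for 8626 genes in place of 2835.

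**Figure D4:**
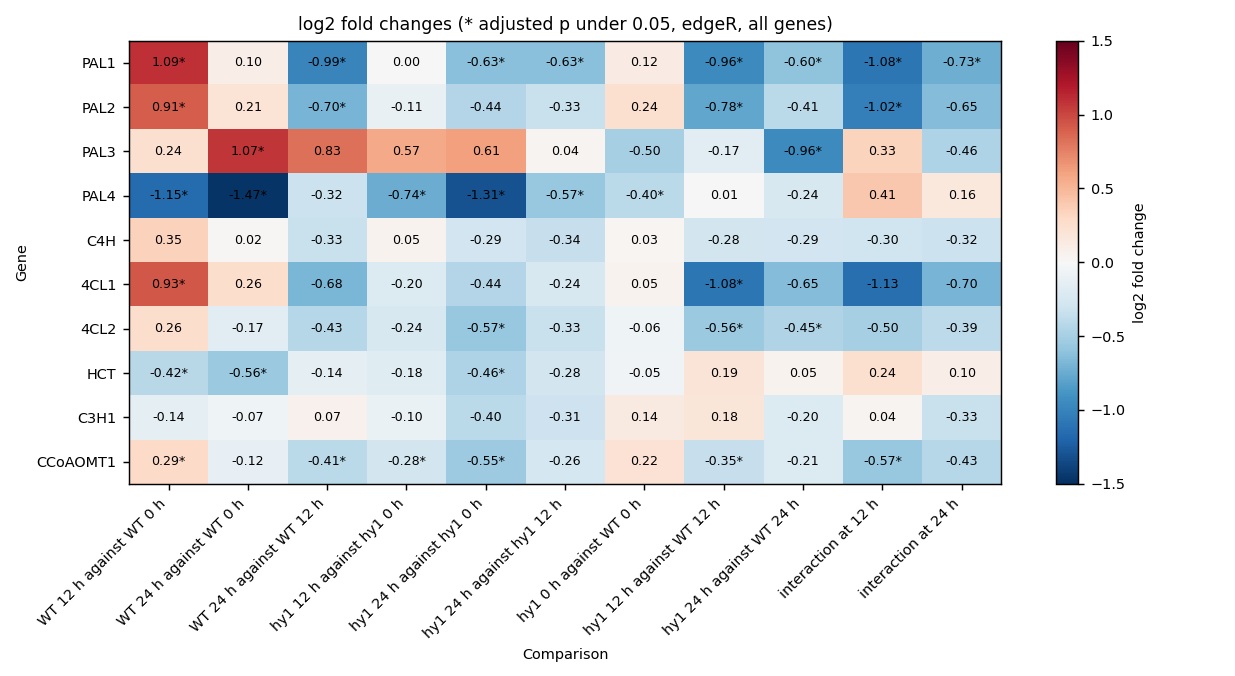
Log2 fold changes of the 10 genes (rows) in the 11 comparisons (columns), red for higher and blue for lower, with an asterisk where the adjusted p was under 0.05. PAL1 shows 1.09 in WT and 0.00 in hy1 at 12 h, and PAL4 is blue in both genotypes.

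Genes that supply the pathway were counted from lists drawn up beside the members. Of 17 listed genes of the shikimate route and of phenylalanine synthesis 16 were tested, and 11 rose and 0 fell in WT at 12 h (28.3% and 25.3% of all genes), with a median of 0.66 against 0.01 for all genes. CM1, a chorismate mutase, rose from 38.1 ± 1.73 to 103 ± 2.77 CPM (1.43 ± 0.079, adjusted p = 1.1e-09). ADT3 and ADT1, arogenate dehydratases that make phenylalanine, rose by 1.12 ± 0.098 and 1.24 ± 0.13. In hy1, where 22.9% of all genes rose and 21.3% fell, 7 rose and 1 fell (CM1 by 0.63 ± 0.077, ADT1 by 1.25 ± 0.13, ADT3 by 0.56 ± 0.097, all higher). The interaction at 12 h passed for 4 of the 16 (13.5% of all genes), each with a negative value, and CM1 (-0.80 ± 0.11), ADT5 (-1.19 ± 0.17) and ADT4 (-0.80 ± 0.15) had the smallest adjusted p. ADT5 rose in WT from 84.1 ± 5.41 to 131 ± 17.9 CPM and fell in hy1 from 170 ± 22.4 to 116 ± 13.5 CPM. Leaving out the 3 libraries, 15 of 16 rose in WT at 12 h, when 47.4% of all genes were called, and 9 interactions passed, when 12.4% of all did.

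Kelch-repeat F-box proteins mark PAL enzymes for degradation, and P450 reductases pass electrons to C4H and C3H1. Of these 6 genes 4 were tested, and 3 fell and 1 rose in WT at 12 h (53.6% of all genes called). KFB20 fell from 156 ± 26.7 to 46.4 ± 8.19 CPM (-1.75 ± 0.19, adjusted p = 1.4e-06), and KFB01 by 0.94 ± 0.11. In hy1 they fell by 0.98 ± 0.18 and 1.06 ± 0.11. KFB20 was higher in hy1 than in WT by 1.17 ± 0.18 at 12 h and 1.46 ± 0.19 at 24 h (adjusted p = 0.00039 and 7.3e-05). The reductase ATR1 fell by 1.00 ± 0.093 in WT and by 1.13 ± 0.094 in hy1, while ATR2, the gene that rose, had an interaction of -0.50 ± 0.15 (adjusted p = 0.032; 0.11 without the 3 libraries). KFB39 and KFB50 could not be tested, since 100% and 97.7% of their exon bases are shared with another gene.

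Further along, 6 of 12 tested lignin and monolignol enzymes rose and 1 fell in WT at 12 h, near the 53.6% of all genes called. 4CL3, the ligase associated with flavonoid synthesis, was at 1.17 to 2.28 CPM in darkness and 71.4 to 232 CPM at 12 h (6.44 ± 0.47; 5.30 without the 3 libraries), and in hy1 at 0.984 to 1.10 and 11.6 to 17.5 CPM. FAH1, the ferulate 5-hydroxylase that leads to sinapate and syringyl lignin, rose from 8.77 ± 1.70 to 78.2 ± 9.92 CPM in WT and from 3.64 ± 1.36 to 37.1 ± 0.925 CPM in hy1. CAD4, a cinnamyl alcohol dehydrogenase, rose by 1.60 ± 0.14 in WT, and in hy1 was at 67.7 to 91.5 CPM in darkness and 178 to 209 CPM at 12 h. In hy1 3 of the 12 rose and 4 fell (44.2% of all genes called), with CCoAOMT7 (-2.93 ± 0.31) and PRR2 (-1.05 ± 0.099), a pinoresinol reductase, among the falls. Of 8 peroxidases and laccases of lignin polymerisation 5 rose and 1 fell in WT (PRX71 2.11 ± 0.24, PRX72 1.51 ± 0.18, PRX25 -1.93 ± 0.18), and 3 and 1 without the 3 libraries, when 47.4% of all genes were called. In hy1 1 rose and 3 fell (PRX72 0.80 ± 0.18, PRX25 -1.41 ± 0.18, PRX64 -0.56 ± 0.18).

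Some genes of the branches that make soluble products changed by more than any member. The flavonoid genes CHS (chalcone synthase), TT5 (chalcone isomerase) and FLS1 (flavonol synthase) were the 3 tested of 4 listed. All 3 rose at 12 h in WT (28.3% of all genes) and in hy1 (22.9%). CHS was at 0.380 to 0.618 CPM in darkness and 3280 to 4380 CPM at 12 h in WT, and at 0 to 0.234 and 610 to 921 CPM in hy1. FLS1 reached 481 to 590 CPM in WT and 73.6 to 137 CPM in hy1. All 3 were lower in hy1 at 12 h and at 24 h, when 17.8% and 10.2% of all genes were. In darkness 2 of the 3 were already lower in hy1, against 12.4% of all genes. CHS and FLS1 were near the floor there, FLS1 at 0.166 to 0.267 CPM in WT and 0.0469 to 0.0947 CPM in hy1. TT5 was at 10.3 to 13.7 CPM in WT and 7.92 to 10.6 CPM in hy1, with overlap. The interaction at 12 h passed for TT5 alone of the 3 (-1.80 ± 0.34, adjusted p = 0.0037). F3H was not tested, since 93.8% of its exon bases are shared with another gene. Among 10 genes of sinapate, coumarin and glucoside branches 3 rose and 2 fell in WT at 12 h, near the 53.6% of all genes called, with a median of 0.15. UGT84A2, which makes sinapoyl glucose, went from 5.25 to 7.64 CPM to 400 to 1130 CPM, and its relative UGT84A1 from 0.200 to 0.285 to 34.2 to 40.0 CPM. UGT72E2, which glucosylates monolignols, fell by 2.79 ± 0.18 in WT and by 3.20 ± 0.18 in hy1.

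Of 13 tested regulators of phenylpropanoid genes 3 rose and 3 fell in WT at 12 h, and 1 and 5 in hy1, against 53.6% and 44.2% of all genes called. MYB4, a repressor of C4H, rose in both genotypes (1.29 ± 0.17 in WT and 0.89 ± 0.17 in hy1), and was lower in hy1 than in WT at 12 h (-0.73 ± 0.17, adjusted p = 0.0054; 0.075 without the 3 libraries). MYB20, an activator of lignin and phenylalanine genes, fell by 1.09 ± 0.17 and 0.60 ± 0.17. MYB46, a secondary wall regulator, rose in WT by 1.16 ± 0.19 (0.65 without the 3 libraries). Its interaction at 12 h was -0.96 ± 0.27 (adjusted p = 0.03; 0.23 without the 3 libraries).

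**Figure D5:**
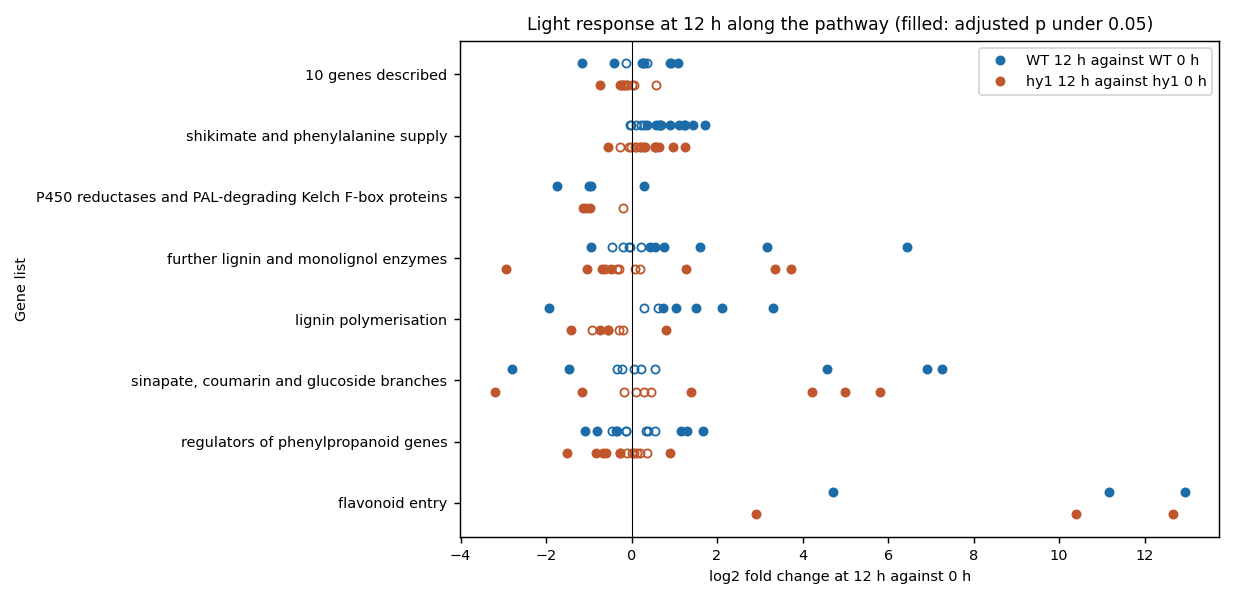
Log2 fold change at 12 h against 0 h (horizontal axis) of the tested genes of each list (rows), WT in blue above and hy1 in orange below, filled where the adjusted p was under 0.05. Of the shikimate and phenylalanine genes 11 of 16 are filled and right of 0 in WT, and MEE32 (-0.04) and EPSPS (-0.01) lie just left of it, and the flavonoid genes reach 12.94 for CHS.

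Root endodermis markers, whose cells also deposit lignin, summed to 412 to 512, 587 to 761 and 44.8 to 77.3 CPM in WT at 0 h, 12 h and 24 h, and to 300 to 364, 358 to 394 and 84.6 to 99.8 CPM in hy1. The sums were thus highest at WT 12 h, like PAL1 and PAL2, and lowest at 24 h, like PAL4 and HCT in both genotypes. Single markers differed. At WT 12 h the means of CASP1 to CASP4 were above those in darkness (375 against 215 CPM for CASP1). Those of CASP5 (50.6 against 67.1 CPM) and MYB36 (15.0 against 19.7 CPM) were below. In hy1 MYB36 was lowest at 12 h (12.9 CPM, against 14.5 CPM at 24 h). Summed stomatal lineage markers were at 1.22 to 19.3 CPM and shoot meristem markers at 3.24 to 27.5 CPM. The part of any of these cells in the results was not tested.

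The genes outside the 10 members most like PAL1 over the 18 libraries, by Pearson r of log2 CPM among genes averaging 5 CPM or more, were AT5G39410 (r = 0.944), AT4G10955 (0.907), AT5G39570 (0.900), AT5G57710 (0.898) and BT4 (0.893). Those most like C4H were TAG1 (0.898), NTMC2T2.1 (0.845), AT5G08680 (0.826), MTHFR2 (0.822) and AT4G26670 (0.817). Among the members, PAL2 was at r = 0.94 with PAL1 and at 0.87 with C4H. The genes most like 4CL1, chosen after values were seen, were AT3G19950, AT4G29440, MYB31, NET1C and AT3G19370, at r of 0.967 to 0.974. Over the 15 libraries without those set apart they were at 0.722 to 0.798.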

How the data were processed

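Per the file headers, the counts deposited by the authors are whole numbers of reads per gene from featureCounts 2.0.3 with TAIR10 gene models. Both mates of a pair were counted singly, without regard to strand, and reads mapped to several places were dropped. STAR 2.7.8a, StringTie 2.1.3 and HTSeq are named without a role, per the submitters' processing notes. The deposited FPKM values were 10 times the FPKM computed from counts, exon lengths and totals in all 408813 values compared, and served for the limma alternatives only. FPKM in the text was computed from the counts.

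Tests were run in R 4.3.3 (edgeR 4.0.16; DESeq2 1.42.0 and limma 3.58.1 for alternatives). A single quasi-likelihood model in edgeR, with a mean for each of 6 groups, was fitted to 18 libraries, with TMM factors of 0.971 to 1.07 and a filter (filterByExpr) that kept 20955 genes. P-values are two-sided, adjusted by Benjamini and Hochberg over all genes within each of 11 comparisons, and called under 0.05. Standard errors are the log2 change over the square root of F, and intervals use the matching t quantile. The code was tested on simulated data.

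Whether replicate numbers pair libraries is not said in the labels, and no pairing was modelled in the main fit. The 45 same-number pairs had correlated deviations of -0.29 to 0.58 (median 0.02), 6 of them over 0.1. With groups of 3 these values cannot settle whether the numbers pair libraries. Members, gene lists, motifs and alternatives were chosen with earlier results of these data known. From each list up to 3 called genes with the smallest adjusted p were named in the comparison described, and 5 genes most like PAL1 and C4H. The 3 libraries set apart were left out as an alternative chosen after seeing the data. Counting precision is not the limit here, and intervals cover the spread between these libraries. The spread of a gene was estimated over all 6 groups together. Intervals between hy1 groups therefore also carry the spread within WT 12 h and WT 24 h, unless groups were compared alone.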

Additional observations from a re-analysis of the deposited data

Results flagged for a closer look

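Among the members the light response differed between genotypes by a test of the difference itself (interaction, edgeR, adjusted p under 0.05 over all genes). The differences, hy1 minus WT on the log2 scale, were -1.08 for PAL1, -1.02 for PAL2 and -0.57 for CCoAOMT1 at 12 h, and -0.73 for PAL1 at 24 h.

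Among the listed genes named in that comparison at 12 h, the supply genes CM1, ADT5 and ADT4 gave -0.80, -1.19 and -0.80, and the reductase ATR2 gave -0.50. The lignin and monolignol enzymes PRR2, CCoAOMT7 and 4CL3 gave -1.01, -2.47 and -2.70, and the polymerisation genes PRX71, PRX52 and LAC4 gave -2.42, -3.50 and -1.45. The regulators MYB15, MYB7 and MYB46 gave -3.18, -1.37 and -0.96, UGT84A2 gave -1.92 and TT5 -1.80. All 15 values were negative, when 6.73% of all genes were called with a positive value and 6.80% with a negative one. An interaction is a difference in response and does not by itself give the level in light. The 12 h means of all 15 were also lower in hy1 than in WT, as for CM1 (66.8 against 103 CPM) and 4CL3 (13.7 against 157 CPM). PRX71 had means of 592 CPM in hy1 and 133 CPM in WT at 0 h, and 480 and 577 CPM at 12 h. ADT5 (170 against 84.1 CPM), PRX52 (5.69 against 1.07) and MYB15 (6.55 against 1.82) also had higher means in hy1 than in WT at 0 h. Those of 4CL3, UGT84A2 and TT5 were lower in hy1 at 0 h. The list rule named called genes only, so their direction and not their call is what is described. Without the 3 libraries set apart, ATR2 (adjusted p = 0.11), LAC4 (0.17) and MYB46 (0.23) no longer passed. The value became -0.92 for UGT84A2, -0.76 for MYB7 and -1.56 for 4CL3, which still passed. Groups of 3 libraries were too small for a test of single outlying libraries.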

How the results depend on the processing

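Of 3080 alternative values for the 110 pairs of member and comparison, 96 lost a call, 56 gained one and 0 called values changed sign. A further 76 values that were called under neither setting changed sign, at a log2 size of 0.29 at most. DESeq2 size factors and both other filters on low counts changed no member's call. Counts of members called moved by over 1.5 times as follows. At adjusted p under 0.01 they were 1 of 3 for WT 24 h against 12 h, 1 of 2 for hy1 at 12 h and for hy1 24 h against 12 h, 0 of 1 between genotypes at 0 h, 3 of 5 at 12 h and 1 of 3 at 24 h, and 1 of 3 and 0 of 1 in the interactions at 12 h and 24 h. With groups compared alone, the count was 3 for WT at 12 h in place of 6, 0 for WT 24 h against 12 h in place of 3, 10 for hy1 at 24 h in place of 5, 2, 1 and 2 in place of 1, 5 and 1 for hy1 against WT at 0 h, at 12 h and for the interaction at 24 h; at 12 h PAL2 then had adjusted p = 0.091 between genotypes. The DESeq2 Wald test gave 5 for WT 24 h against 12 h and 2 for the interaction at 24 h. For hy1 at 12 h the count was 1 with upper-quartile factors and with limma on log2(FPKM + 1) and log2(FPKM + 0.1). PAL4 passed in the interaction at 12 h with upper-quartile factors and with limma (0.52 and 0.55). With the replicate block the count for hy1 at 12 h was 1, as CCoAOMT1 reached adjusted p = 0.051, and PAL2 passed in hy1 at 24 h (0.038); the block changed no other member's call, and 9 of 18 libraries correlated best with their own number. Without the 3 libraries set apart the count was 10 for hy1 at 24 h, 6 for hy1 24 h against 12 h, 3 and 6 for hy1 against WT at 12 h and 24 h and 4 for the interaction at 24 h. The causes were not tested.

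With 1 library left out the counts ran from 5 to 7 for WT at 12 h, 2 to 3 at 24 h and 1 to 6 for WT 24 h against 12 h, the highest without WT 12 h replicate 1. They ran from 1 to 2 for hy1 at 12 h, 5 to 7 at 24 h and 0 to 2 for hy1 24 h against 12 h. Between genotypes they ran from 0 to 1 at 0 h, 2 to 5 at 12 h and 1 to 4 at 24 h, and in the interactions from 1 to 5 at 12 h and 0 to 1 at 24 h. PAL1 and PAL2 in WT at 12 h were called in all 18 such fits, at 1.01 to 1.14 and 0.73 to 1.03, as was PAL4 at -1.21 to -1.09. Groups of 3, and the split within WT 12 h, limit these results.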
